A study of Mus musculus with 8 samples.

Results

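Aminoacyl-tRNA synthetases are the enzymes that attach each amino acid to its transfer RNA, and 37 genes of this group were followed in activated mouse T cells kept with or without human beta-defensin-2 (hBD-2). Members were taken by their symbol in the platform's annotation. They comprise the synthetase genes and the genes of 3 scaffold proteins, Aimp1, Aimp2 and Eef1e1, out of 19505 named genes on the arrays. Each member had 1 probe set. By the compartment that their enzymes serve, 16 members are cytosolic, 16 are mitochondrial, 2 (Gars and Kars) serve both, and 3 are scaffolds. The cytosolic alanine enzyme and both aspartate enzymes are not analysed here. Tarsl2, a further threonine enzyme gene, was not a member by its symbol and is counted in a list of partners below. No member was left out for low signal, and mean log2 levels ran from 4.90 (Ears2) to 9.92 (Gars), all above the arrays' lower quartiles of 3.62 to 3.78.

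The cells, CD4 and CD8 T cells together, came from spleens of male wild-type C57BL/6 mice and were activated for 48 h by microbeads against CD3 and CD28. The control group received the vehicle, phosphate-buffered saline (PBS), and the other group received hBD-2, an antimicrobial peptide of human epithelia, at 60 µL/mL, which as a volume gives no mass concentration. Each group held 4 one-colour arrays, numbered 1 to 4. The labels name 4 mice, give no age and leave the mouse behind each array unstated, so p-values measure only the spread between these arrays. The comparison asks what the peptide changes in activated T cells.

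As background, a charged tRNA carries its amino acid to the ribosome, so the cytosolic enzymes serve protein synthesis from nuclear messages and the mitochondrial enzymes serve the small set of proteins made inside mitochondria. Both sets are encoded in the nucleus. In animals, several cytosolic enzymes sit together with the 3 scaffolds in the multi-synthetase complex. T cells raise their capacity for protein synthesis on activation. When amino acids run short, uncharged tRNA activates the kinase Gcn2 (gene Eif2ak4), and the transcription factor ATF4 then induces amino acid transporters, biosynthetic enzymes and several cytosolic synthetases.

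In cells kept with hBD-2, 1 of the 37 genes passed the threshold: Aimp2, a scaffold of the multi-synthetase complex, fell 1.58-fold. No member rose. Across all genes 4.46% were past the threshold (an adjusted p under 0.05 in limma, a linear model fitted over all genes), with 3.66% lower and 0.800% higher. Most synthetase genes nonetheless lay slightly lower with hBD-2: 33 of 37 log2 fold changes (the difference of the group means of the log2 values, hBD-2 minus PBS) were below 0, against 46.1% of all genes. The cytosolic enzymes had a median of -0.19 and the mitochondrial enzymes one of -0.10, against 0.02 for all genes. Over the 4724 genes whose mean level lay within the range of the cytosolic enzymes, 64.7% were below 0 and the median was -0.08, so bright genes in general lay lower too. Over the 8897 genes in the level range of the mitochondrial enzymes, 53.6% were below 0 and the median was -0.02.

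**Figure D1:**
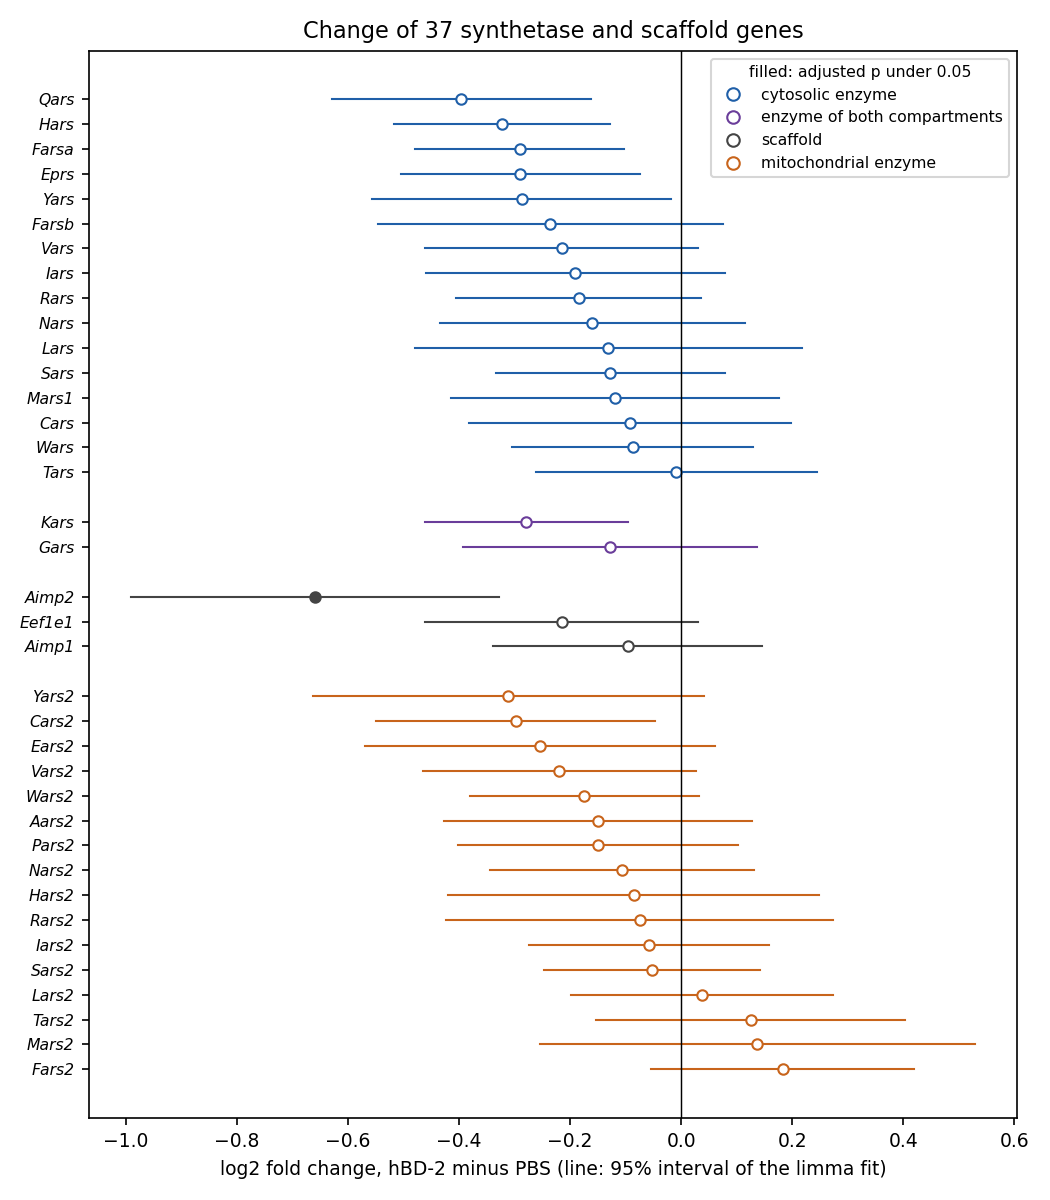
Log2 fold change of each of the 37 members (horizontal axis, hBD-2 minus PBS, 4 arrays a group), with its 95% interval from the limma fit as a line. All 16 cytosolic enzymes lie left of 0 on the deposited values (14 with quantile normalization repeated), 12 of 16 mitochondrial enzymes do, and Aimp2 is the only member with a filled point, which marks an adjusted p under 0.05.

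The arrays themselves differed between the groups in the spread of their values. The interquartile range of all probe sets was 3.64 to 3.76 log2 units on the PBS arrays, 3.64 on hBD-2 replicate 1, 3.57 on replicate 2, and 3.45 on both replicates 3 and 4. The narrower range moved with the members' values, since hBD-2 replicates 3 and 4 were also the arrays on which most cytosolic synthetases were lowest. Normalizing again moved the cytosolic median together with that of all genes in the same level range. With quantile normalization repeated these medians were -0.09 and 0.01, against -0.19 and -0.08 on the deposited values.

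Promoter sequence shows which members carry the letters of an ATF4 site. The amino acid response element was searched as TGATGNAA on both strands, in the window from 250 bases before to 50 bases after the gene's start, in RefSeq promoters of build GRCm38.p6. The table held a window for 28 of the 37 members, and 4 of these matched (Tars, Gars, Iars and Yars), while 3.97% of all 32851 windows did. The full form TGATGCAA was in 3 of the 4, Gars being the exception, and in 0.895% of all windows. The 4 matches are shown because cytosolic synthetases are known among the targets of ATF4. Each is printed 5′ to 3′ along the gene with 10 bases on either side, and capitals mark the match, which reads as the reverse complement in Tars, Gars and Iars.
Tars, chr15:11399656-11399683, minus strand: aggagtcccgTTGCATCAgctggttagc
Gars, chr6:55037961-55037988, plus strand: ggctgcgctaTTTCATCAtgcaccgggc
Iars, chr13:49682127-49682154, plus strand: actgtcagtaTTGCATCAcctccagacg
Yars, chr4:129189896-129189923, plus strand: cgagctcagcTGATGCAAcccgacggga

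The match began 15 bases before the annotated start of Tars and 30 bases before that of Gars, and 7 and 3 bases after those of Iars and Yars. The E-box CACGTG, the letters bound by Myc and related factors, occurred in 4 of the 28 windows (Ears2, Farsb, Iars and Tars), against 7.15% of all windows. Of the genes with the ATF4 letters, Tars had a log2 fold change of -0.01, Gars one of -0.13, Iars one of -0.19 and Yars one of -0.29. None passed the threshold. The 3 cytosolic enzymes with the lowest fold changes were Qars, Hars and Farsa. Qars and Farsa had a window without this match, and Hars had no window. A match is a description of letters, and binding was not measured.

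Of the 3 scaffolds, Aimp2 encodes the central one of the complex, and it had the lowest log2 fold change of the 37 members. Its log2 values were 8.88, 8.83, 8.60 and 8.71 on the PBS arrays and 8.40, 8.34, 7.68 and 7.98 on the hBD-2 arrays. The groups did not overlap, and hBD-2 replicates 3 and 4 were the lowest. Aimp2 fell from 8.76 ± 0.128 (SD, n = 4) to 8.10 ± 0.336, a log2 fold change of -0.66 with an SE of 0.151 (limma adjusted p = 0.0349). The call was lost when any 1 of 5 arrays was left out: PBS replicates 1, 2 or 4, or hBD-2 replicates 3 or 4 (limma adjusted p from 0.0728 to 0.0980). With both hBD-2 replicates 3 and 4 left out the log2 fold change was -0.39 (limma adjusted p = 0.214). That omission was chosen after the data were seen and takes out the arrays lowest for Aimp2. A smaller change was therefore built in and decides nothing about the call. Aimp1, the scaffold from which a secreted cytokine-like fragment is cut, was at 7.46 ± 0.129 and 7.36 ± 0.172. Eef1e1, the smallest scaffold of the complex, was at 9.20 ± 0.154 and 8.98 ± 0.160. Neither passed the threshold, with limma adjusted p of 0.657 and 0.285, and in both genes the groups overlapped.

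Among the cytosolic enzymes, 0 of 16 passed the threshold in limma, and 5 had an unadjusted p under 0.05 (Qars, Hars, Farsa, Eprs and Yars). Over all genes 12.8% were lower at that unadjusted p, as were 26.2% of genes in the same level range. All 16 had a log2 fold change below 0, from -0.40 (Qars) to -0.01 (Tars), or 15 with cyclic loess and 14 with quantile normalization repeated or with the level trend removed. In 4 of the 16 the hBD-2 arrays all lay below the PBS arrays, which held for 9.36% of all genes and for 21.7% of genes in the same level range. With a variance trend and robust estimation 3 of the 16 passed (Eprs, Hars and Qars), and 3 passed when dim genes were not tested (Farsa, Hars and Qars). Over all genes, the number past the threshold went from 869 to 2033 and 1541 under these settings.

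Qars, which charges glutamine tRNA and belongs to the complex, had values of 9.30, 9.25, 9.18 and 9.20 with PBS and 9.01, 8.89, 8.57 and 8.89 with hBD-2. Every hBD-2 array was below every PBS array, with replicate 3 the lowest. The log2 fold change was -0.40 with an SE of 0.107, or 1.32-fold lower (limma adjusted p = 0.0598). It passed without hBD-2 replicate 1 (limma adjusted p = 0.0350).

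Hars, the histidine enzyme, stood at 8.25, 8.33, 8.23 and 8.42 with PBS and at 8.07, 7.97, 7.99 and 7.90 with hBD-2. The 4 hBD-2 arrays lay close together here, and replicates 3 and 4 did not stand apart. The log2 fold change was -0.32 with an SE of 0.0890 (limma adjusted p = 0.0646). Phenylalanine is charged by an enzyme built from the products of Farsa and Farsb. Farsa gave 7.33, 7.21, 7.33 and 7.32 with PBS and 7.07, 7.06, 6.93 and 6.96 with hBD-2, again without overlap, and the difference of means was -0.29 (limma adjusted p = 0.0801). Farsb, the partner subunit, had overlapping groups at 7.45 ± 0.238 and 7.21 ± 0.226 and differed by -0.24 on the log2 scale (limma adjusted p = 0.353).

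Eprs encodes a single protein that charges both glutamate and proline tRNA and is part of the complex. Its values were 9.96, 9.94, 9.74 and 9.93 with PBS and 9.71, 9.71, 9.47 and 9.53 with hBD-2. The gap between the groups was narrow, because PBS replicate 3 was low. The log2 fold change was -0.29 with an SE of 0.0983 (limma adjusted p = 0.116). Kars, the lysine enzyme of both compartments and also of the complex, gave 9.30, 9.26, 9.24 and 9.25 with PBS and 9.06, 9.01, 8.97 and 8.90 with hBD-2. The PBS arrays lay close together, with an SD of 0.0244. The log2 fold change was -0.28 with an SE of 0.0834 (limma adjusted p = 0.0827). Kars passed with a variance trend and robust estimation (limma adjusted p = 0.00762) and with dim genes left out (0.0317). Gars, the glycine enzyme of both compartments, was at 9.99 ± 0.0946 and 9.86 ± 0.236 with overlapping groups (limma adjusted p = 0.575).

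**Figure D2:**
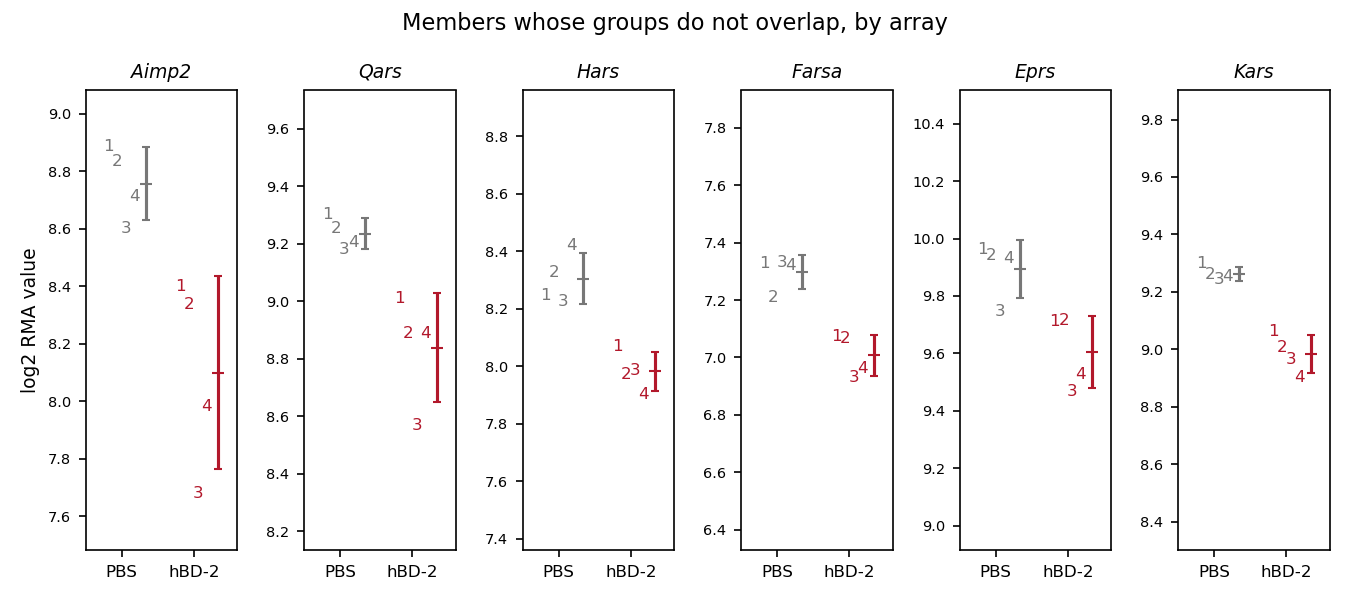
Log2 RMA values (vertical axis, each panel spanning the same range of log2 units) of the 6 members whose groups did not overlap, with each array drawn as its replicate number, PBS in grey and hBD-2 in red, and bars for mean and SD of 4 arrays. In Aimp2, hBD-2 replicates 3 and 4 lie well below replicates 1 and 2, while in Hars the 4 hBD-2 arrays lie together between 7.90 and 8.07.

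Yars, the tyrosine enzyme, had values of 8.63, 8.67, 8.48 and 8.65 with PBS and 8.64, 8.38, 8.20 and 8.06 with hBD-2. The first hBD-2 array lay among the PBS arrays and the other 3 lay below them, and the means differed by -0.29 (limma adjusted p = 0.197). Vars (valine), Iars (isoleucine), Rars (arginine), Nars (asparagine), Lars (leucine), Sars (serine) and Mars1 (methionine) had log2 fold changes between -0.22 (Vars) and -0.12 (Mars1), each with overlapping groups. Their limma adjusted p-values ran from 0.284 (Vars) to 0.677 (Lars). The smallest differences were those of Cars (cysteine), at -0.09, Wars (tryptophan), which interferon also induces, at -0.09, and Tars (threonine), at -0.01. Tars was at 8.78 ± 0.136 and 8.77 ± 0.190, with a 95% interval of the difference from -0.26 to 0.24, and its sign turned under several settings.

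By position in the multi-synthetase complex, the 7 measured enzymes inside it (Eprs, Iars, Kars, Lars, Mars1, Qars and Rars) had a median log2 fold change of -0.19, and the 11 outside it one of -0.16. In 3 of the 7 and in 2 of the 11 the hBD-2 arrays lay wholly below the PBS arrays. This held for 9.36% of all genes and for 21.7% of genes in the level range of the cytosolic enzymes. Gars, among the 11, had a mean level of 9.92, above the top of that range at 9.75. The 2 sets were not tested against each other. Synthetases fall into structural classes I and II by the fold of the catalytic domain. The 9 class I enzymes had a median of -0.18 and the 8 class II enzymes one of -0.20, with Eprs, which carries both folds, left out.

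Mitochondrial enzymes varied more in direction. None of the 16 passed the threshold in limma, and Cars2 alone had an unadjusted p under 0.05. At that unadjusted p 12.8% of all genes were lower, as were 18.8% of genes in the level range of the mitochondrial enzymes. In no case did the groups separate. The hBD-2 arrays lay wholly below the PBS arrays for 9.36% of all genes and for 12.4% of genes in that range. Of the 16, 12 lay below 0 and 4 above, or 10 and 6 under each of the 3 further normalizations. Cars2, the mitochondrial cysteine enzyme, had values of 7.93, 7.69, 7.64 and 7.93 with PBS and 7.63, 7.67, 7.35 and 7.35 with hBD-2. Replicates 1 and 2 with hBD-2 sat close to the lowest PBS arrays, and replicates 3 and 4 sat below, and the means differed by -0.30 (limma adjusted p = 0.157). Yars2, the tyrosine enzyme, had the lowest log2 fold change, -0.31, but its PBS values were spread from 6.30 to 7.15 (limma adjusted p = 0.280). Without PBS replicate 3, its lowest PBS array, Yars2 passed, at -0.49 (limma adjusted p = 0.0475). Ears2, the mitochondrial glutamate enzyme and the dimmest member, was at 5.03 ± 0.208 and 4.77 ± 0.262.

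At the other end, Fars2 (phenylalanine) had a log2 fold change of 0.18, Mars2 (methionine) one of 0.14, Tars2 (threonine) one of 0.13 and Lars2 (leucine) one of 0.04. Fars2 was at 7.21 ± 0.179 and 7.40 ± 0.0997 (limma adjusted p = 0.347), with a 95% interval of the difference from -0.05 to 0.42. Mars2 was at 5.38 ± 0.160 and 5.52 ± 0.417, and its hBD-2 values ran from 4.99 on replicate 3 to 5.91 on replicate 2. The other 9 mitochondrial members, Vars2, Wars2, Aars2, Pars2, Nars2, Hars2, Rars2, Iars2 and Sars2, had log2 fold changes between -0.22 (Vars2) and -0.05 (Sars2), with limma adjusted p from 0.275 to 0.823.

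The members' behaviour by array is plain when each gene is set against its own PBS mean. Over the 16 cytosolic enzymes, the median of these deviations was 0.07, 0.03, -0.14 and 0.03 on PBS replicates 1 to 4 and 0.01, -0.04, -0.36 and -0.33 on hBD-2 replicates 1 to 4. Thus hBD-2 replicates 1 and 2 were near the PBS level, PBS replicate 3 was low, and hBD-2 replicates 3 and 4 were far lower. Replicate 3 held the lowest of the 8 values for 10 of the 16 genes and replicate 4 for 5. The mitochondrial medians were -0.02, 0.04, -0.15 and 0.08 with PBS and -0.01, -0.09, -0.07 and -0.15 with hBD-2. Here PBS replicate 3 was as low as hBD-2 replicate 4, and the groups overlapped.

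**Figure D3:**
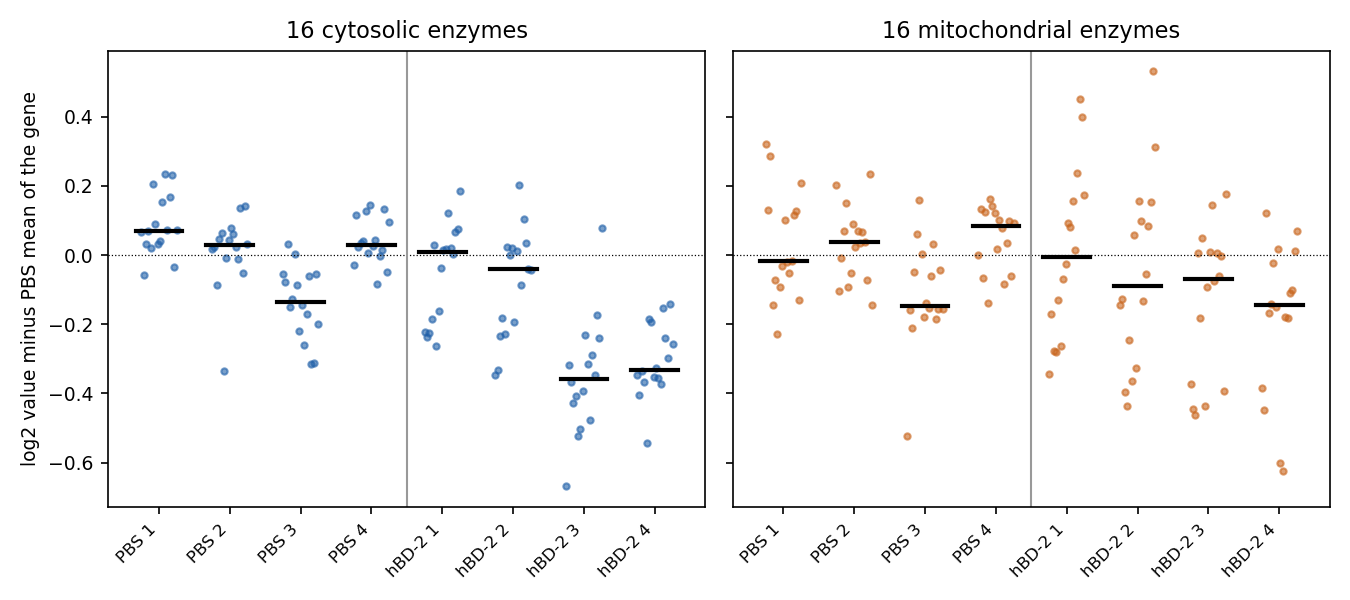
Deviation of each gene's log2 value from its mean over the 4 PBS arrays (vertical axis), for 16 cytosolic and 16 mitochondrial enzymes on each of the 8 arrays, with a black bar at the median. For the cytosolic enzymes the bars of hBD-2 replicates 3 and 4 lie at -0.36 and -0.33, apart from the bars of the other 6 arrays, which lie between -0.14 and 0.07.

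These arrays weigh on the medians. Without hBD-2 replicates 3 and 4 the cytosolic median was -0.06 and the mitochondrial one -0.013, and 10 of 16 cytosolic enzymes were below 0. This omission was chosen after the data were seen and takes out the arrays lowest for these enzymes. A weaker cytosolic median was therefore built in and decides nothing. Leaving out hBD-2 replicate 3 alone gave a cytosolic median of -0.12. With quantile normalization repeated, which gives every array the same spread, the cytosolic median was -0.09 with 14 of 16 below 0, and the median of the genes in the same level range was 0.01. Cyclic loess and removal of each array's level trend both gave -0.10 for the cytosolic enzymes, with -0.0028 and 0.0035 for genes in that range. The mitochondrial medians under these 3 normalizations were -0.08, -0.10 and -0.09, so the compartments lay close together there. Aimp2 was the single member past the threshold under each of them. How far the array spread accounts for the cytosolic values was not tested beyond these settings.

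**Figure D4:**
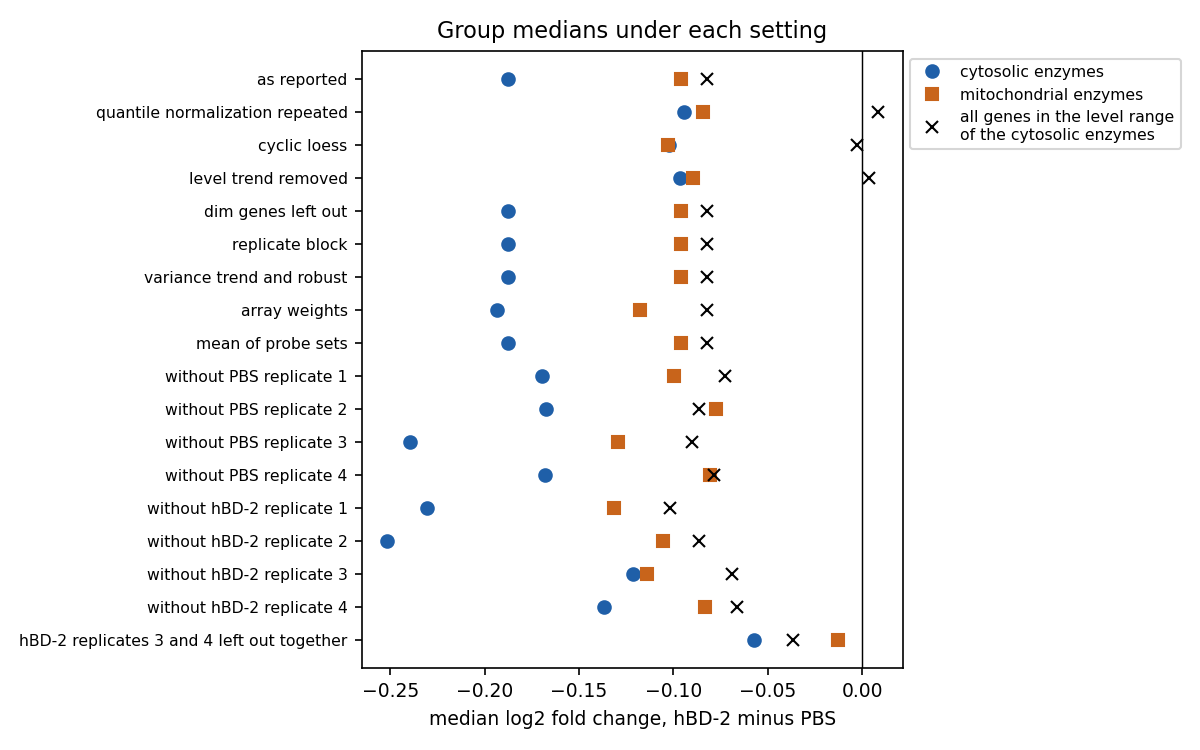
Median log2 fold change (horizontal axis) of the cytosolic enzymes, the mitochondrial enzymes and all genes in the cytosolic enzymes' level range, under each setting listed on the vertical axis. The cytosolic median lies at -0.19 as reported, at -0.09 with quantile normalization repeated and at -0.06 without hBD-2 replicates 3 and 4.

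For 12 amino acids a cytosolic and a mitochondrial enzyme were each represented by 1 member. The log2 difference between the pair was taken within each array and compared across the groups. The cytosolic enzyme had the lower log2 fold change in 8 of the 12 pairs. The difference of fold changes, cytosolic minus mitochondrial, ran from -0.26 for methionine (Mars1 and Mars2) to 0.21 for cysteine (Cars and Cars2). For histidine it was -0.24, with -0.32 for Hars and -0.09 for Hars2, which are neighbouring genes in the RefSeq table of GRCm38.p6. Valine and tyrosine had near-equal values in the 2 compartments, at -0.22 for both Vars and Vars2, and at -0.29 for Yars and -0.31 for Yars2. In a two-sided exact permutation test with 4 arrays against 4, which cannot give a p under 0.0286, cysteine reached that lowest p and no pair passed after Benjamini-Hochberg adjustment over the 12 (lowest adjusted p = 0.343). The same 0.343 is what any single pair at the lowest p would be given over 12 pairs, so this design could not have passed 1 pair alone and leaves the compartments' difference for an amino acid undecided.

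**Figure D5:**
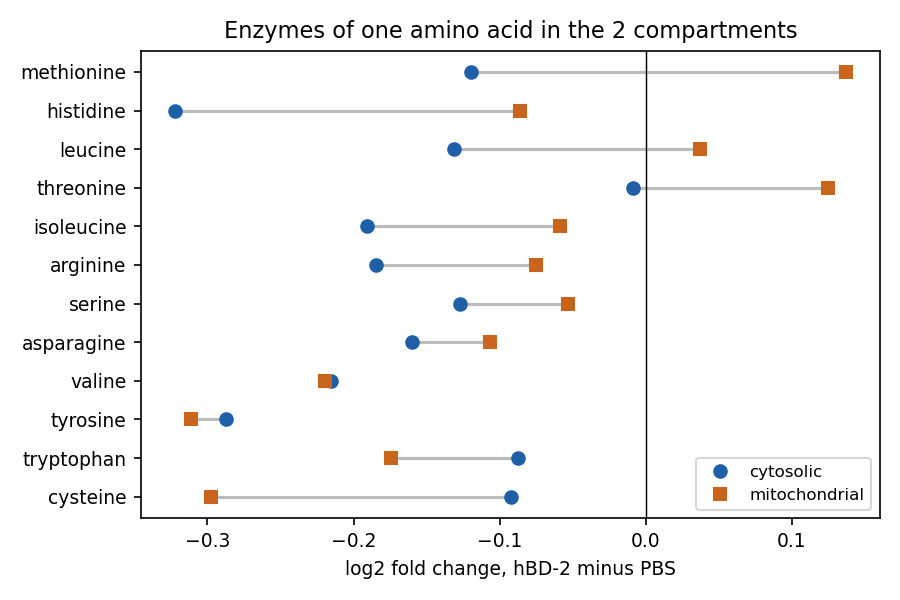
Log2 fold change (horizontal axis, hBD-2 minus PBS) of the cytosolic gene (circle) and the mitochondrial gene (square) for each of 12 amino acids, joined by a line. Methionine shows the widest gap with the cytosolic gene lower, at -0.12 against 0.14, and cysteine the widest gap the other way, at -0.09 against -0.30.

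The wider machinery of tRNA was followed in 4 lists, against 3.66% of all genes lower and 0.800% higher. Among genes in the cytosolic enzymes' level range, 7.98% were past the threshold and lower. Of 12 measured genes listed as partners of tRNA charging and editing, none fell, and the list median was -0.02. The 12 include Tarsl2, itself a threonine synthetase gene, at a log2 fold change of -0.03. Lrrc47, a leucine-rich repeat protein whose part in charging was not measured, rose 1.30-fold (limma adjusted p = 0.0491). Among 10 genes, those of elongation factors and Eef2k of the eEF2 kinase, 2 fell and none rose. All 10 were below 0, with a median of -0.17. Of all genes 46.1% were below 0. Mean levels of the 10 reached 12.6, and the brightest, Eef1a1, had a log2 fold change of -0.0012. Eef1d, a subunit of the exchange factor that reloads the tRNA carrier eEF1A, fell from 10.1 ± 0.0282 to 9.60 ± 0.246, or 1.42-fold (limma adjusted p = 0.0372). Tufm, the mitochondrial counterpart of that carrier, fell 1.39-fold (limma adjusted p = 0.0370). Of 30 tRNA modification and processing genes, Trit1, which modifies a base beside the anticodon, fell 1.29-fold (limma adjusted p = 0.0481), and the list median was -0.08. Of 20 genes of RNA polymerase III, which transcribes tRNA, the subunit gene Polr3g fell 1.75-fold (limma adjusted p = 0.0499) with overlapping groups, and the median was -0.09. Each of these 5 calls was lost when any 1 of 5 to 7 arrays was left out, with limma adjusted p up to 0.0985 for Eef1d, 0.107 for Tufm, 0.131 for Lrrc47, 0.132 for Polr3g and 0.136 for Trit1. Tufm, Trit1 and Polr3g were also not past the threshold under the 3 further normalizations.

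The amino acid response was looked at through 19 measured genes of the Gcn2 and ATF4 pathway, with a median of -0.06. Of these, 3 fell and none rose, against 3.66% lower and 0.800% higher over all genes. In the cytosolic enzymes' level range 7.98% of genes fell. Eif2ak4, the gene of Gcn2 itself, fell 1.33-fold, from 7.64, 7.61, 7.46 and 7.64 with PBS to 7.20, 7.16, 7.19 and 7.15 with hBD-2. Here all 4 hBD-2 arrays lay close together and below every PBS array (log2 fold change -0.41, SE 0.0859, limma adjusted p = 0.0232). Its call was nonetheless lost without any 1 of 6 arrays (limma adjusted p up to 0.0768). Eif4ebp1, a repressor of cap-dependent translation, fell 1.56-fold (limma adjusted p = 0.0212) and was no longer past the threshold without any 1 of 5 arrays (up to 0.0715). Vldlr, a lipoprotein receptor counted among ATF4 targets, fell 1.91-fold (limma adjusted p = 0.000816) and kept its call without each array in turn (up to 0.00451).

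Neither the Atf4 transcript nor that of the best-known biosynthetic target of ATF4 passed, and both are named here after their values were seen. The arrays measure transcripts, so the amount and activity of the ATF4 protein stay unmeasured. Atf4 was at 9.82 ± 0.133 and 9.76 ± 0.258 (limma adjusted p = 0.832), and Asns, asparagine synthetase, at 9.27 ± 0.213 and 9.28 ± 0.232 (limma adjusted p = 0.985). None of 14 amino acid transporter genes passed in limma, with a median of -0.15 and mean levels from 4.34 to 10.5. At an unadjusted p under 0.05, 6 were lower, against 12.8% of all genes and 26.2% in the cytosolic enzymes' level range.

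Markers of the labelled cell type were high on all arrays. The summed linear level of 11 T cell markers was 15960 to 16821 on the PBS arrays and 16065 to 16992 on the hBD-2 arrays, and none of the 11 passed the threshold. The sums overlapped between the groups for 7 B cell markers (174 to 348 with PBS and 167 to 558 with hBD-2), 10 myeloid markers (180 to 233 and 186 to 239) and 5 NK cell markers (486 to 591 and 409 to 509). The NK cell sum was almost all Eomes, which activated CD8 T cells also express, at 8.91 and 8.69, while the group means of the other 4 lay between 2.89 and 3.72. The sums did not overlap for 7 erythroid and mast cell markers, at 207 to 219 and 237 to 336, of which Cpa3, Fcer1a and Klf1 rose, against 0.800% of all genes. Their PBS means were low, at 4.41, 3.72 and 4.90, where the arrays' lower quartiles were 3.62 to 3.78. Of the 10 myeloid markers only Itgam, an integrin, passed the threshold, 1.54-fold lower at a mean of 4.61 with PBS. Over all genes 3.66% were lower. The myeloid list went both ways, with 7 markers above 0 and 3 below, and its median log2 fold change was 0.03. Arrays give no true zero, and the part of these cells in the synthetase values was not tested. In these bulk samples fewer cells of a type and less RNA per cell cannot be told apart.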

How the data were processed

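The authors deposited log2 expression values of 22203 probe sets on 8 Affymetrix whole-transcript arrays. Per the submitters' processing notes they used oligo and RMA (robust multi-array average: background correction, normalization between arrays and summary of probes). The sources used here give neither tool versions nor the annotation build. Per the platform annotation, 1 gene was named for 19572 probe sets, and 2631 stayed unnamed. Where a gene had more than 1 (55 genes), the brightest by mean was kept, leaving 19505 genes.

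Groups were compared with limma 3.58.1 in R 4.3.3 (lmFit, eBayes, no block), with two-sided tests and p-values adjusted by Benjamini-Hochberg across all genes at 0.05. The fit was tested on simulated data with independent noise for each gene and known changes larger than that of any member. That test therefore does not cover changes as small as those of the members. Members, lists and tests were chosen with earlier results of these data known. Every member is accounted for, members past the threshold are given by array, and other lists by their members past the threshold. The comparison of compartments by amino acid and the omission of hBD-2 replicates 3 and 4 together were added after the data were seen. Other alternatives were 3 further normalizations, a filter at percentile 40 of mean level (a log2 value of 4.74), a replicate block, array weights, another variance model, means of probe sets and leaving out each array.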

Additional observations from a re-analysis of the deposited data

Results flagged for a closer look

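Each group of 4 arrays was checked for a value far from the rest in the 37 genes, 74 groups in all, with Dixon's ratio at its 95% critical value. Chance alone marks about 1 group in 20, and 4 were marked here. PBS replicate 3 was low for Eprs, at 9.74 against 9.93 to 9.96 on the other PBS arrays. PBS replicate 2 was low for Farsa, at 7.21 against 7.32 to 7.33, and high for Wars, at 9.42 against 9.22 to 9.24. In the hBD-2 group, replicate 4 was low for Rars2, at 5.62 against 6.33 to 6.39.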

How the results depend on the processing

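Genes past the threshold numbered 1541 with dim genes left out, 2033 with a variance trend and robust estimation, and 128 without hBD-2 replicates 3 and 4. Leaving out 1 array at a time gave 312 to 1396, and the replicate block gave 857, against 869. Of the calls, 82.0% were lower, and 69.6% after quantile normalization, 72.4% after cyclic loess and 69.7% after removal of the level trend. Cytosolic enzymes past the threshold numbered 3 with dim genes left out, 3 with the variance trend, and 0 to 1 with 1 array left out. Mitochondrial ones numbered 0 to 1 with 1 array left out. The cytosolic median was -0.058 without hBD-2 replicates 3 and 4. Same-numbered arrays deviated together with correlations of 0.18, 0.06, 0.16 and 0.0048 for replicates 1 to 4, so the numbers were not taken as pairs, and 2 of 4 PBS arrays correlated best with their own number. The block ended the calls of Lrrc47, Trit1 and Tufm (limma adjusted p = 0.0629, 0.0634 and 0.0536) and of no synthetase or scaffold gene.

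Log2 fold changes near 0 changed sign. Without hBD-2 replicates 3 and 4 they were 0.051 for Cars, 0.072 for Gars, 0.13 for Hars2, 0.0103 for Iars2, 0.16 for Lars, 0.054 for Mars1, 0.014 for Nars, 0.0899 for Rars2, 0.072 for Tars, 0.017 for Wars and 0.13 for Atf4. This omission, chosen after the data were seen, takes out the arrays lowest for most cytosolic enzymes. Upward shifts were therefore built in and decide nothing. With quantile normalization the log2 fold changes were 0.033 for Iars2, 0.039 for Sars2, 0.0896 for Tars, 0.011 for Wars and 0.015 for Atf4. Cyclic loess gave 0.027 for Iars2, 0.026 for Sars2, 0.077 for Tars and 0.022 for Atf4. With the level trend removed, values were 0.033 for Iars2, 0.032 for Sars2, 0.083 for Tars, 0.0034 for Wars and 0.032 for Atf4. With 1 array left out, ranges were -0.17 to 0.087 for Hars2, -0.029 to 0.086 for Lars2, -0.15 to 0.11 for Rars2, -0.075 to 0.074 for Tars, -0.099 to 0.096 for Asns and -0.14 to 0.057 for Atf4. In all, 583 of the values of single synthetase and scaffold genes under other settings kept their direction and side of the threshold, 30 changed sign, 10 came past the threshold and 6 lost it. These counts include the omission of both hBD-2 replicates 3 and 4. The causes were not tested. The number of arrays limits the precision.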
